A study of Mus musculus with 8 samples.

Results

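The 10 genes that mark the mesothelium here were read across the stromal vascular fraction (SVF) of gonadal white adipose tissue (WAT): Msln, Upk3b, Upk1b, Krt8, Krt18, Krt19, Wt1, Lrrn4, Muc16 and Gpm6a. They were chosen by name as markers of the cell layer that covers gonadal fat, not by their levels, though earlier results of these data were known. All 10 were found, each on its own row, among the 54532 genes of the count table. The mice were male C57BL/6J, with an age at the start of the diet taken here as 6 weeks. This age is uncertain, since the paper's methods list older mice and its account of this diet model gives no age. The mice were fed a high-fat diet (HFD, 60% fat by calories) over 12 weeks. A chow diet (16% fat by calories) then replaced it. From that point every mouse was injected every 2 weeks for 6 weeks with 2 mg/kg of antibody, until week 18. The control Ab group (mice 1, 2, 6 and 9) received an isotype control IgG, and the anti-BAFF Ab group (mice 5, 7, 8 and 10) received Sandy-2, which neutralises BAFF, the cytokine on which mature B cells depend. All 8 mice shared the diet history, so no lean or continuously HFD-fed mouse enters these comparisons. RNA came from the collagenase digest of a gonadal fat pad after removal of floating adipocytes and red cells, which leaves a mixture of stromal, vascular, immune and surface cells with no sorting step.

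The mesothelium is a sheet of flat epithelial cells that lines body cavities and wraps the organs in them, visceral fat depots included. It comes from mesoderm, yet it carries epithelial keratins and surface glycoproteins, and it lubricates the surface of the organ. Mesothelial cells retain some capacity to turn into mesenchymal cells, and the transcription factor Wt1 is known from both the mesothelium and the progenitors of visceral fat. In bulk RNA, fewer cells of a type and less RNA per cell cannot be told apart.

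The libraries held 13562340 to 18548024 counts assigned to genes, and 3 counts corresponded to between 0.166 and 0.220 CPM (the count of a gene relative to the total of its library, scaled with TMM factors). The 10 genes had 208 to 4292 counts per mouse, so that counting error was at most 6.93% of a value, against coefficients of variation over the 8 mice of 24.4% to 43.3%. Epididymal genes stood high in control Ab mouse 2 and anti-BAFF Ab mouse 7 (summed level of a 12-gene list of 2142 and 2144 CPM, against 16.9 to 826 CPM in the other 6 mice), and values without this pair are given where they matter. Control Ab mouse 1 had the highest summed level of a 10-gene macrophage list (13240 CPM, against 9011 to 11360 CPM). As a check on the treatment, all 8 genes of a B cell list had a log2 fold change below 0 (anti-BAFF Ab over control Ab), with a median of -1.32, 7 of them at an unadjusted p under 0.05 and 0 after adjustment over all genes in edgeR. To judge the mesothelial identity of the members, 28 further mesothelial genes were read, with values given further on. Of these, 25 had enough counts to be tested. The other 3, named here after their values were seen, had means near 0: Calb2 (0.171 CPM), Upk3bl (0.0770 CPM) and Hsd17b2 (0.121 CPM). Calb2 reached 0.878 CPM in control Ab mouse 6, where 3 counts corresponded to 0.220 CPM.

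Levels of different genes were compared per length, as FPKM, the CPM of a gene per kilobase of its deposited length. Krt8 was the highest member with a median of 56.7 FPKM over the 8 mice, followed by Upk3b (48.0), Krt18 (36.7), Krt19 (31.1), Msln (27.2), Wt1 (20.5), Gpm6a (17.1), Lrrn4 (14.6), Upk1b (14.3) and Muc16 (1.41 FPKM). Muc16 has by far the longest transcript of the set, at 26350 bases, and its level in CPM lay within the range of the others. The ranges over mice of neighbours in this order overlapped, with the exception of Upk1b and Muc16: the lowest Upk1b value was 6.18 FPKM and the highest Muc16 value 2.18 FPKM. Within single mice the order was firmer at some steps than at others, since Krt8 exceeded Upk3b in 8 of 8 mice and Msln exceeded Wt1 in 8 of 8, whereas Krt18 exceeded Krt19 in 5 of 8 and Lrrn4 exceeded Upk1b in 5 of 8. Summed over the members, mesothelial transcripts made up 0.0374% to 0.109% of the counts of a mouse.

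RefSeq promoter entries (GRCm38.p6, 250 bases before to 50 bases after the annotated start) were present for Upk3b, Krt8, Krt18, Lrrn4, Muc16 and Gpm6a, and not for Msln, Upk1b, Krt19 and Wt1. Upk3b and Lrrn4 are shown because their levels followed each other between mice, and Krt8 and Krt18 because their proteins form filaments together and their levels moved apart from the other members, as described further on. Capitals mark CATTCC, the core read by TEAD factors, in the first pair and TATAAA in Krt8, each on either strand. The windows are chr5:136038246-136038545 (plus strand) for Upk3b, chr2:132880813-132881112 (minus strand) for Lrrn4, chr15:102004293-102004592 (minus strand) for Krt8 and chr15:102027966-102028265 (plus strand) for Krt18.
Upk3b: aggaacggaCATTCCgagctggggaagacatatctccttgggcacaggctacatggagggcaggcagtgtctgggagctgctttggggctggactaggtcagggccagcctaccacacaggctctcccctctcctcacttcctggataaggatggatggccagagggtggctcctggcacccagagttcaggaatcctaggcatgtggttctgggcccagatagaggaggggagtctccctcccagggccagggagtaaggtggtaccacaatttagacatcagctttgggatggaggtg
Lrrn4: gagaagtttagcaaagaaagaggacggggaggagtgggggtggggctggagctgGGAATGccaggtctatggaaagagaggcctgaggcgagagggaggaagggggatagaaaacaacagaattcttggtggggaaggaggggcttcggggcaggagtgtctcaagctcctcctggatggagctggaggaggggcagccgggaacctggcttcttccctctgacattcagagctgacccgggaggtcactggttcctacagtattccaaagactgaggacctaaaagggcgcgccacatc
Krt8: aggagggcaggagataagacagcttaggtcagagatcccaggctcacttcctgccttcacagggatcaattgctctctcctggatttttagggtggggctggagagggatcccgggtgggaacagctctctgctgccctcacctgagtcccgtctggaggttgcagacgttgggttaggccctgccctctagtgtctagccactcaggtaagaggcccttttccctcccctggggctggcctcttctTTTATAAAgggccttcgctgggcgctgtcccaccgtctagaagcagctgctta
Krt18: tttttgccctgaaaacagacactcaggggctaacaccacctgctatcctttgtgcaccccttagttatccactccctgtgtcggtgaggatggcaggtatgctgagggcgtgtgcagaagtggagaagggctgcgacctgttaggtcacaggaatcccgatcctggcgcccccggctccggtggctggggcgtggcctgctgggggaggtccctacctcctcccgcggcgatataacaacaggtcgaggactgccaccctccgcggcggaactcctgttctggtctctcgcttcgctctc
CATTCC began 241 bases before the start of Upk3b and 196 bases before that of Lrrn4, and it was in 2 of the 6 member promoters and in 14.7% of 32851 RefSeq promoters. Gpm6a, whose window held no CATTCC, followed Upk3b between mice as closely as Lrrn4 did (Pearson's r of log2 CPM 0.98 and 0.96). TATAAA was in 2 of 6, Krt8 and Gpm6a, and in 13.6% of all promoters. In Krt8 its copies on both strands overlapped and began 3 bases before the annotated RefSeq start. That start lay 140 bases from the start of Krt8 by the coordinates of the count table. The GC box GGGCGG was in 0 of the 6 and in 35.7% of all promoters. The CCAAT box was in 0 of the 6 and in 37.4% of all, and the E-box CACGTG in 0 of the 6 and in 7.15% of all, with both strands searched throughout. Krt18 held 17 CG dinucleotides in its window, against 6 for Krt8, 7 for Lrrn4, 2 for Upk3b and a median of 7 over all promoters.

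The comparison between treatments asked whether neutralising BAFF changed the level of mesothelial transcripts in the SVF. With edgeR, 0 of the 10 members reached an adjusted p under 0.05 by the quasi-likelihood test, whereas 9 of 15963 genes (0.0564%) did, all of them lower with anti-BAFF Ab. The members also gave 0 calls in DESeq2 (0.269% of the genes it adjusted) and in limma on log2(FPKM + 1) (0.0564% of genes), and 0 of 10 had an unadjusted edgeR p under 0.05, against 1.9% of all genes. The groups overlapped for all 10, whereas they did not overlap for 1.48% of all genes. All 10 fitted log2 fold changes lay below 0, from -0.40 to -0.04 with a median of -0.19, beside 48.5% of all genes below 0 and a median over all genes of 0.004. The members vary together from mouse to mouse, so these 10 signs are not 10 independent observations, and their size turned on single control Ab mice. Their median was -0.43 without control Ab mouse 1, -0.04 without control Ab mouse 2 and -0.03 without control Ab mouse 9, and with mice 2 and 7 both left out it was -0.10, with 6 members below 0 and 4 above.

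Msln encodes mesothelin, a lipid-anchored surface glycoprotein, and Muc16 encodes the large mucin that binds it. Msln (ENSMUSG00000063011, chr17:25748614-25754327, mm10) stood at 33.3, 87.8, 57.7 and 74.0 CPM in control Ab mice 1, 2, 6 and 9, and at 49.7, 50.2, 67.3 and 57.5 CPM in anti-BAFF Ab mice 5, 7, 8 and 10. The anti-BAFF Ab values lay inside the span of the control Ab values, with means of 56.2 ± 8.23 and 63.2 ± 23.4 CPM (SD, n = 4 each). Its log2 fold change was -0.17 with a 95% confidence interval from -0.75 to 0.41 (edgeR, adjusted p = 1.0). Muc16 (ENSMUSG00000109564, chr9:18495455-18674530) stood at 22.2, 43.4, 37.8 and 57.4 CPM in the control Ab mice and at 28.9, 34.5, 36.3 and 39.4 CPM in the anti-BAFF Ab mice, listed in the same order. Here too control Ab mice held both the lowest and the highest value, and the log2 fold change was -0.21 (interval -0.76 to 0.34; edgeR, adjusted p = 1.0). The ratio of Muc16 to Msln in CPM, the 2 partners of this pair, ran from 0.494 to 0.776 over the mice, a narrower span than the 2.64-fold and 2.59-fold spans of the single genes.

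Upk3b and Upk1b encode uroplakins, membrane proteins first known from the plaques of the bladder lining and also made by mesothelium. Upk3b (ENSMUSG00000042985, chr5:136038496-136046487) was the member with the highest CPM, at 93.3, 217, 178 and 266 CPM in control Ab mice 1, 2, 6 and 9 and at 158, 139, 175 and 164 CPM in anti-BAFF Ab mice 5, 7, 8 and 10. The anti-BAFF Ab-treated mice lay within a 1.26-fold span, and the control Ab-treated mice within a 2.85-fold span around them. Upk1b (ENSMUSG00000049436, chr16:38773184-38800328) stood at 12.9, 51.4, 28.8 and 52.9 CPM in the control Ab mice and at 26.0, 21.0, 32.4 and 30.9 CPM in the anti-BAFF Ab mice. It had the fitted difference farthest from 0 among the members, a log2 fold change of -0.40 with an interval from -1.26 to 0.45 (edgeR, adjusted p = 1.0), and the group means were 36.5 ± 19.2 and 27.6 ± 5.17 CPM (SD, n = 4 each). For Upk3b the log2 fold change was -0.25, with an interval from -0.84 to 0.35.

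Krt8, Krt18 and Krt19 encode keratins of simple epithelia, in which keratin 8 assembles with keratin 18 or keratin 19 into filaments. Krt8 (ENSMUSG00000049382, chr15:101996698-102004482) stood at 59.9, 164, 118 and 170 CPM in control Ab mice 1, 2, 6 and 9 and at 95.5, 157, 104 and 96.0 CPM in anti-BAFF Ab mice 5, 7, 8 and 10. Krt18 (ENSMUSG00000023043, chr15:102028180-102032027) stood at 20.2, 92.5, 54.1 and 64.6 CPM in the control Ab mice and at 34.1, 70.2, 51.4 and 37.7 CPM in the anti-BAFF Ab mice. For both genes anti-BAFF Ab mouse 7 was the highest of its group, which it was for no other member. Krt19 (ENSMUSG00000020911, chr11:100140810-100148665) stood at 23.5, 86.7, 61.7 and 90.8 CPM in the control Ab mice and at 43.6, 44.3, 69.4 and 53.6 CPM in the anti-BAFF Ab mice, and followed the uroplakins instead. Log2 fold changes were -0.18 for Krt8, -0.26 for Krt18 and -0.32 for Krt19, and their intervals all held 0, the widest running from -1.17 to 0.65 for Krt18. Krt8 has a processed pseudogene, Krt8-ps, with which reads could be shared, and it was listed at a mean of 0.445 CPM against 121 CPM for Krt8.

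Wt1 encodes a zinc-finger transcription factor needed for the development of kidney, gonad and mesothelium. Wt1 (ENSMUSG00000016458, chr2:105126529-105173616) stood at 47.8, 120, 155 and 162 CPM in control Ab mice 1, 2, 6 and 9 and at 90.4, 85.9, 158 and 135 CPM in anti-BAFF Ab mice 5, 7, 8 and 10. Its groups were the closest among the members, with a log2 fold change of -0.04 and an interval from -0.84 to 0.75. The antisense gene Wt1os overlaps this locus and had a mean of 2.48 CPM; whether the counting used strand is not given in the sources used here, so reads of the overlap cannot be assigned with certainty. Lrrn4, a leucine-rich repeat membrane protein, and Gpm6a, a tetraspan glycoprotein also abundant in neurons, are surface markers of mesothelium. Lrrn4 (ENSMUSG00000043110, chr2:132868305-132880891) stood at 33.8, 74.8, 55.1 and 73.2 CPM in the control Ab mice and at 50.02, 47.1, 63.8 and 53.4 CPM in the anti-BAFF Ab mice. Gpm6a (ENSMUSG00000031517, chr8:54954843-55060871) stood at 27.4, 62.8, 53.3 and 79.8 CPM in the control Ab mice and at 47.3, 44.4, 59.8 and 56.8 CPM in the anti-BAFF Ab mice. Both repeated the pattern of a wide control Ab group around a narrow anti-BAFF Ab group, with log2 fold changes of -0.15 (interval -0.66 to 0.37) and -0.10 (interval -0.72 to 0.51).

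**Figure D1:**
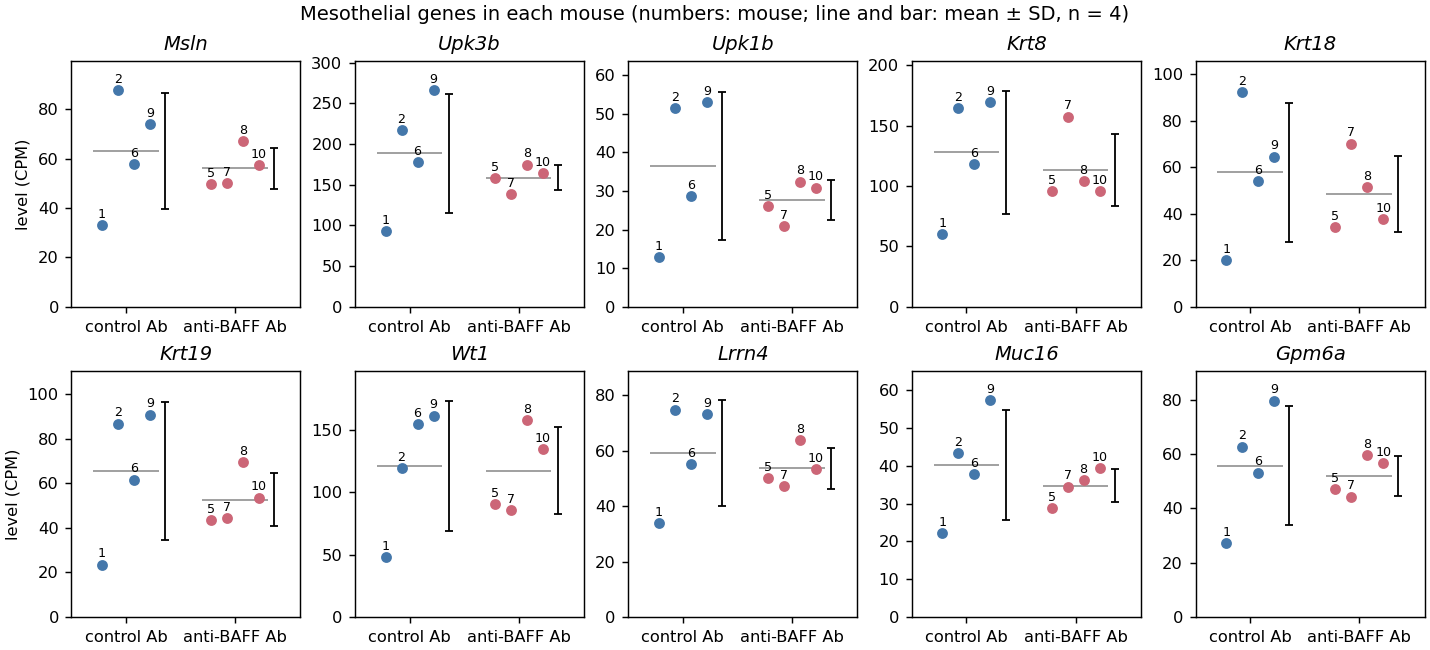
Level of each mesothelial gene in CPM (y axis, from 0) in the control Ab-treated and anti-BAFF Ab-treated mice; points are mice with their numbers, grey lines the group means and black bars the SD (n = 4 per group). Control Ab mouse 1 is the lowest mouse in all 10 panels, and every anti-BAFF Ab value lies between the lowest and the highest control Ab value.

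**Figure D2:**
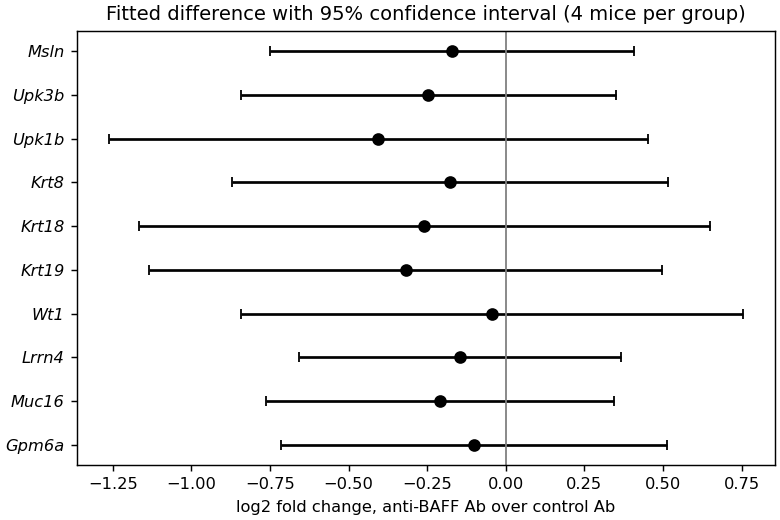
Fitted log2 fold change of each member, anti-BAFF Ab over control Ab (x axis), with its 95% confidence interval from the edgeR fit over all genes (4 mice per group). All 10 points lie below 0, from -0.40 for Upk1b to -0.04 for Wt1, and all 10 intervals hold 0.

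Mesothelial transcripts differed widely between mice of the same group. Control Ab mouse 1 was the lowest of the 8 mice for 10 of 10 members. The highest was control Ab mouse 9 for 7 members and control Ab mouse 2 for Msln, Krt18 and Lrrn4. The summed level of the members was 374, 1000, 799 and 1090 CPM in control Ab mice 1, 2, 6 and 9 and 624, 694, 817 and 724 CPM in anti-BAFF Ab mice 5, 7, 8 and 10. The highest mouse exceeded the lowest by 2.21-fold for Lrrn4 up to 4.57-fold for Krt18, and within the anti-BAFF Ab group by 1.26-fold to 2.06-fold. The SD of log2 CPM over all 8 mice had a median of 0.48 over the members and of 0.23 over all genes tested. In the control Ab group that median was 0.68 over the members and 0.25 over all genes, and in the anti-BAFF Ab group it was 0.24 and 0.18. The control Ab SD was the larger for 10 of 10 members, as it was for 67.9% of all genes. Without control Ab mouse 1 it was the larger for 6 of 10 members and 42.7% of all genes, and the control Ab median was 0.30 over the members and 0.16 over all genes. The median over the members thus stayed above that of the anti-BAFF Ab group, by less than with mouse 1, while the median over all genes fell below it. The difference in spread was not tested.

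Other cell types moved in control Ab mouse 1 as well. It had the lowest summed level of the endothelial list (1070 CPM, against 1204 to 1940 in the other mice), of the adipocyte progenitor list (5444 CPM, against 6528 to 8838) and of the smooth muscle and pericyte list (418 CPM, against 653 to 1141). The highest-to-lowest ratio over the mice was 2.91 for the summed members, 2.73 for smooth muscle and pericytes, 1.81 for endothelium and 1.62 for adipocyte progenitors. The part of the macrophage share in these values was not tested.

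The members varied together between mice. Over the 45 pairs of members, Pearson's r of log2 CPM over the 8 mice ran from 0.59 to 0.99 with a median of 0.89, and 43 pairs passed an adjusted p of 0.05 (exact permutation test, two-sided, Benjamini-Hochberg over 45 pairs). By Spearman's rho 29 pairs passed. All points share the 8 libraries and their scaling, and control Ab mouse 1 carried much of the relation. Without it 18 of the 45 pairs passed in the 7 remaining mice, with a median r of 0.72. With the 2 mice farthest from the median of the first gene left out, a choice that removed control Ab mouse 1 from every pair, the median r was 0.68 and 43 of 45 were above 0.

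Among Msln, Upk3b, Upk1b, Krt19, Lrrn4, Muc16 and Gpm6a, a set of 7 picked out after the correlations were seen and so given without a test, the 21 values of r ran from 0.87 to 0.99. Without the 2 farthest mice the same pairs ran from 0.68 to 0.98. Krt19 and Lrrn4 had the highest r of all pairs, 0.99 (exact permutation p = 9.9e-05, adjusted 0.000781), with a rho of 0.95 (exact permutation p = 0.00114, adjusted 0.00513) and an r of 0.97 without control Ab mice 1 and 9. The uroplakins Upk3b and Upk1b gave an r of 0.98 (exact permutation p = 0.000174, adjusted 0.000781) and a rho of 0.93 (exact permutation p = 0.00223, adjusted 0.00628), and 0.97 without mice 1 and 9. Msln and its partner Muc16 had the lowest r of this set, 0.87 (exact permutation p = 0.00985, adjusted 0.0158), with a rho of 0.88 (exact permutation p = 0.00724, adjusted 0.0155) and 0.83 without mice 1 and 2. Within each treatment group (4 mice each, as a description) r was above 0 for 21 of 21 of these pairs.

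Krt8 and Krt18 formed a pair of their own. Their r with each other was 0.96 (exact permutation p = 0.000273, adjusted 0.000877), their rho 0.93 (exact permutation p = 0.00223, adjusted 0.00628), and r stayed at 0.95 without control Ab mice 1 and 9. With the 7 genes above, their 14 values of r ran from 0.73 to 0.85 and fell to between -0.01 and 0.51 without the 2 farthest mice, so that these weaker relations rested on those mice. Within the anti-BAFF Ab group 10 of the 14 were below 0. When control Ab mouse 2 and anti-BAFF Ab mouse 7 were left out, the same 14 values ran from 0.90 to 0.99, and 45 of 45 pairs of members passed in the remaining 6 mice (exact permutation test, smallest possible p = 0.0014). These 6 mice were chosen after the data were seen and still held control Ab mouse 1. With the 2 farthest of the 6 also left out, the 14 values ran from 0.12 to 0.99 with a median of 0.56. The pairs that did not pass over all 8 mice were Wt1 with Krt8 (r = 0.59, exact permutation p = 0.120, adjusted 0.120; rho = 0.52, p = 0.197) and Wt1 with Krt18 (r = 0.62, exact permutation p = 0.101, adjusted 0.103; rho = 0.29, p = 0.501).

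**Figure D3:**
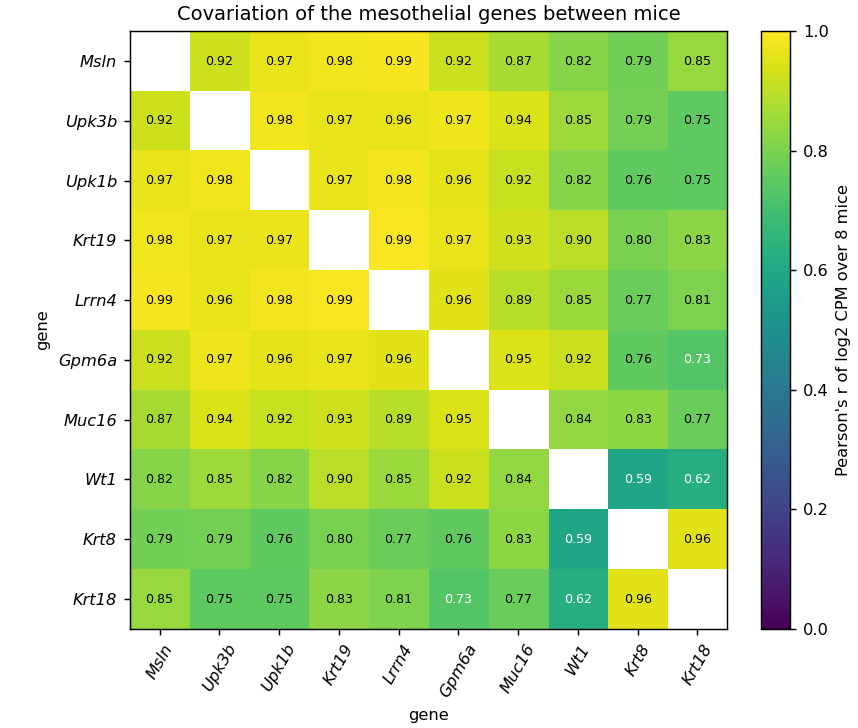
Pearson's r of log2 CPM over the 8 mice for each pair of members (both axes list the genes; colour and printed values give r, from 0 to 1). The block from Msln to Muc16 lies between 0.87 and 0.99, Krt8 and Krt18 share 0.96 with each other and 0.73 to 0.85 with that block, and Wt1 with Krt8 is lowest at 0.59.

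Ratios between members in the same mouse gave the same picture without reference to the depth of a library. Gpm6a to Upk3b was the steadiest of those computed, from 0.289 to 0.346 over the 8 mice, and Lrrn4 to Upk3b ran from 0.275 to 0.365. Krt8 to Upk3b was 0.642, 0.756, 0.667 and 0.638 in control Ab mice 1, 2, 6 and 9 and 0.604, 1.14, 0.595 and 0.585 in anti-BAFF Ab mice 5, 7, 8 and 10. Krt18 to Upk3b was 0.217, 0.426, 0.305 and 0.243 in the control Ab mice and 0.216, 0.506, 0.294 and 0.230 in the anti-BAFF Ab mice. Anti-BAFF Ab mouse 7 and control Ab mouse 2 thus held the highest and second highest value of both ratios, and these are the mice with epididymal sums of 2144 and 2142 CPM.

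Simple epithelia other than the mesothelium also carry keratins 8 and 18, so the 10-gene list of general epithelium was read beside them. Its summed level was 22.1, 213, 114 and 126 CPM in control Ab mice 1, 2, 6 and 9 and 77.4, 172, 119 and 63.4 CPM in anti-BAFF Ab mice 5, 7, 8 and 10. Control Ab mouse 2 and anti-BAFF Ab mouse 7 were again the highest. Epcam, an adhesion protein of most simple epithelia, was at 43.0 and 44.1 CPM in these mice and at 10.9 to 29.1 CPM in the others, and Cldn7, a tight junction protein, at 23.5 and 22.7 CPM against 3.04 to 11.9 CPM. Control Ab mouse 6, with the next highest epididymal sum of 826 CPM, also had the next highest ratios to Upk3b, 0.667 for Krt8 and 0.305 for Krt18. Anti-BAFF Ab mouse 5 had a similar sum, 802 CPM, with ratios of 0.604 and 0.216, the latter the lowest of the 8 mice. The part of other epithelium in the Krt8 and Krt18 values of mice 2 and 7 was not tested.

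Wt1 departed from the set in other mice. Its ratio to Upk3b was 0.872 in control Ab mouse 6, 0.904 in anti-BAFF Ab mouse 8 and 0.820 in anti-BAFF Ab mouse 10, and 0.513 to 0.620 in the other 5. Those 3 mice had the 3 highest endothelial sums, 1940, 1848 and 1940 CPM, and adipocyte progenitor sums of 8178, 8619 and 8838 CPM. Control Ab mouse 9 had a progenitor sum of 8690 CPM with a Wt1 ratio of 0.608, so the order did not match in every mouse. The part of progenitor cells in the Wt1 level was not tested.

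**Figure D4:**
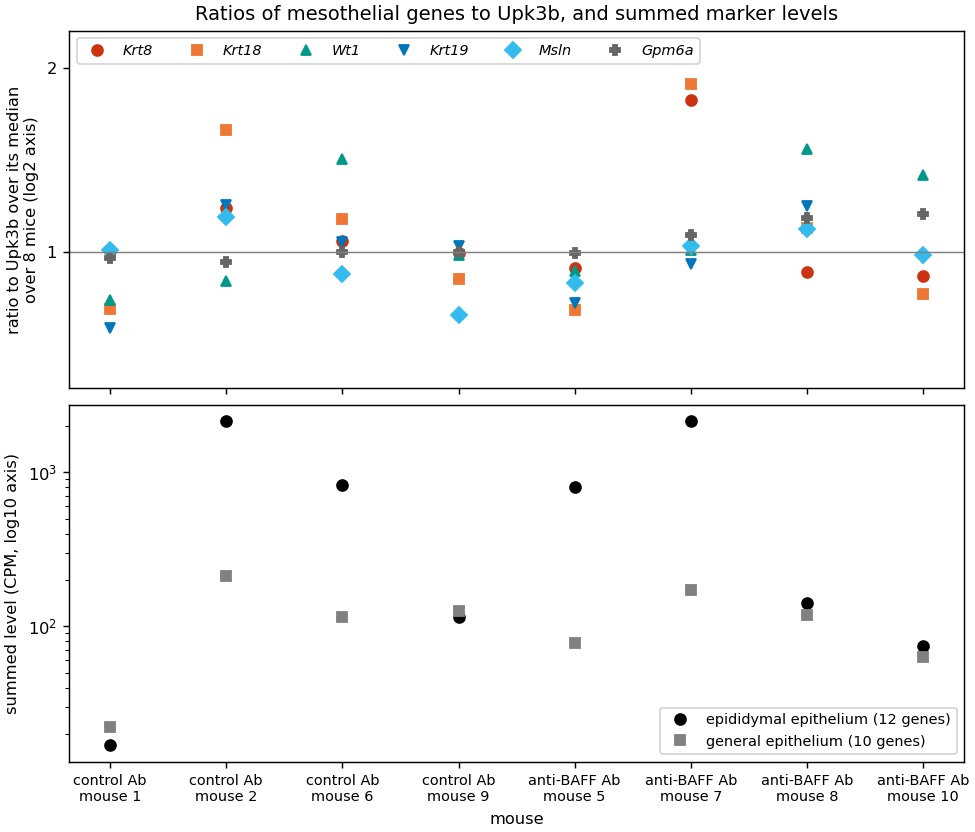
Upper panel: ratio in CPM of 6 members to Upk3b in each mouse, divided by the median of that ratio over the 8 mice (y axis, log2 scale). Lower panel: summed CPM of the epididymal and general epithelium lists in the same mice (y axis, log10 scale); Krt8 and Krt18 are highest in anti-BAFF Ab mouse 7, where the epididymal sum is 2144 CPM, and Wt1 in mice 6, 8 and 10.

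The further mesothelial genes gave no treatment call either. Of the 25 tested, 0 passed the adjusted threshold in edgeR or DESeq2 and 0 had an unadjusted edgeR p under 0.05, with a median log2 fold change of -0.12 and 21 below 0. Their r with the mean log2 CPM of the members had a median of 0.79, and it was over 0.8 for 11 of 25 (44.0%), beside 6.94% of all genes tested. Has1, a hyaluronan synthase, stood at 297, 843, 1028 and 935 CPM in control Ab mice 1, 2, 6 and 9. In anti-BAFF Ab mice 5, 7, 8 and 10 it stood at 706, 471, 932 and 750 CPM. Its lowest value was in control Ab mouse 1, as for the members. Efemp1, a fibulin of the extracellular matrix, ran from 215 to 532 CPM with an r of 0.94, and Igfbp5, which binds insulin-like growth factors, from 212 to 709 CPM with an r of 0.86. C3, the central complement component, was far higher, at 7295 to 11000 CPM with an r of 0.75, and it is also made by other stromal cells. The part of other cell types in the Has1, Efemp1 and Igfbp5 levels was not tested.

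Genes linked to the change of mesothelial into mesenchymal cells were read in the same fit. Of 16 listed, of which Acta2 is also on the smooth muscle list, 16 were tested and 0 passed in edgeR or DESeq2, with 0 at an unadjusted edgeR p under 0.05, a median log2 fold change of 0.05 and 10 above 0. Their r with the mean of the members had a median of 0.61, and 3 of 16 (18.8%) were over 0.8, beside 6.94% of all genes tested. These 3, chosen here after their values were seen, were Twist1 (0.93), a transcription factor of this change, Acta2 (0.89) and Cdh2 (0.85), which encodes N-cadherin. Tgfbr2, a receptor for TGF-beta, had an r of 0.77. Vim, the intermediate filament protein of mesenchymal cells, ran opposite to the members with an r of -0.94, and stood highest in control Ab mouse 1 (5519 CPM, against 4134 to 4847 CPM in the others). Vim is also carried by macrophages and fibroblasts, so this value belongs to no single cell type. Col1a1, a fibrillar collagen chain, had an r of -0.64 and Fn1, fibronectin, an r of -0.02.

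The 10 other genes whose log2 CPM was most like the mean of the members over the 8 mice were Nkain4 (r = 0.99), Tmem151a, Rfk, Fgf1, Sgsm2, Rspo1, Megf6, Selenom, Fgfr2 and Cnn1 (r = 0.97). Nkain4, Tmem151a and Rspo1 were on the list of further mesothelial genes and Cnn1, calponin of smooth muscle, on that of smooth muscle and pericytes. Nkain4 ran from 11.2 to 30.6 CPM, and Fgf1, a growth factor, from 57.4 to 131 CPM. The amplitudes differed, since Rfk, riboflavin kinase, spanned only 48.4 to 60.0 CPM. Without the 2 farthest mice these 10 genes had an r of 0.89 to 0.98. Likeness was not particular to mesothelial lists, as 5 of the 7 smooth muscle and pericyte genes (71.4%) also had an r over 0.8, with Myh11, the smooth muscle myosin heavy chain, at 0.90 and Acta2, smooth muscle actin, at 0.89. The median r of that list was 0.85, against 0.79 for the further mesothelial genes. General epithelium had 3 of 10 genes over 0.8 (30.0%) and adipocyte progenitors 3 of 14 (21.4%), beside 6.94% of all genes tested. Their median r was 0.70 and 0.59. The endothelial list had 0 of 11 over 0.8 and a median r of 0.68, and the macrophage list 0 of 10 and a median r of -0.42. The epididymal, adipocyte and B cell lists also had 0 over 0.8.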

How the data were processed

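Members and gene lists were chosen with earlier results of these data known. Bulk RNA from 8 SVF samples, 1 per mouse, was sequenced paired-end, and the authors deposited a table of raw counts per gene with gene coordinates and gene length in bases; mm10 is named in the submitters' processing notes, and aligner and counter are not given in the sources used here. Groups came from the sample titles, with n = 4 mice per group. Genes were kept by filterByExpr (minimum count 10), scaled by TMM and tested in all 8 mice with edgeR 4.0.16 (quasi-likelihood, R 4.3.3), with Benjamini-Hochberg adjustment over 15963 genes at a threshold of 0.05. DESeq2 1.42.0 on all genes and limma 3.58.1 on log2(FPKM + 1) were alternatives. FPKM used the deposited length, and log2 CPM a prior count of 2. The tests were tested on simulated data. Correlations used exact permutation of pairings over 8 mice (scipy 1.17.1; smallest possible p for Pearson's r 2.5e-05). Depth was 13562340 to 18548024 counts, and floors and counting errors cover counting error only. Libraries within a group differed by more than sampling noise, so each was counted. The genes named are the members, up to 4 genes of each list with the highest mean CPM, listed genes past the threshold (0), and the 10 genes most like the members' mean with at least 1 CPM; exceptions are stated as such. Alternatives changed the scaling, the filter, the test and the mice. The correlations without control Ab mouse 1, without mice 2 and 7, and on deviations from the group means were added after seeing the data.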

Additional observations from a re-analysis of the deposited data

Results flagged for a closer look

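Krt8 in anti-BAFF Ab mouse 7 lay apart from its group, at 157.4 CPM against 95.5 to 104 CPM in the other 3 anti-BAFF Ab-treated mice. On the log2 scale the gap was 0.832 of the group's range, just above Dixon's critical value for 4 samples. This value was the only departure of this size among 22 sets of 4 mice tested, where chance gives about 1.1. The epididymal and general epithelium sums of this mouse are given beside the keratin ratios, and their part in the value was not tested.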

How the results depend on the processing

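The number of members called was 0 under every alternative run. Over all genes the count was 9, all lower. It was 70 in DESeq2 on all genes (66 lower and 4 higher), 19 with no filter on low counts, 2 with the robust option, 2 against a minimum change of 1.2-fold, 3 without control Ab mouse 2 and anti-BAFF Ab mouse 7, and 2 to 9 with each mouse left out in turn. Leaving out a mouse kept the sign of 72 of 80 log2 fold changes of members and turned 8, with ranges of -0.401 to 0.0309 for Msln, -0.559 to 0.0646 for Krt18, -0.33 to 0.13 for Wt1, -0.429 to 0.0156 for Muc16 and -0.35 to 0.12 for Gpm6a. The other alternatives kept 95 of 100 and turned 5, namely Wt1 (0.0416) in limma on log2(FPKM + 1) and, without mice 2 and 7, Msln (0.0585), Wt1 (0.05), Lrrn4 (0.0225) and Gpm6a (0.0082). The cause was not tested. Of the 45 pairs of members, 43 passed over all mice, 18 without control Ab mouse 1, and the median r was 0.676 without the 2 mice farthest from the median. With 4 mice per group, the lowest limit of the members' 95% intervals was -1.26 (Upk1b) and the highest 0.75 (Wt1). For each gene, changes inside its own interval remain compatible with these data. The labels give no batch, and p-values measure the spread between these 8 samples.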
